A study of Mus musculus with 18 samples.

Results

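Proteasome genes were located among the consensus ATAC-seq peaks of cultured mouse cortical neurons. All 46 protein-coding genes whose symbols start with Psma, Psmb, Psmc, Psmd or Psme were taken, of 21774 nuclear protein-coding genes placed on a chromosome in RefSeq GRCm38.p6. They were sorted by role into 31 constitutive subunits, 3 immunoproteasome subunits (Psmb8, Psmb9 and Psmb10), the thymus subunit Psmb11, the testis subunit Psma8, 3 assembly chaperones and 4 activators. The remaining 3 only carry the prefix. They are Psmc3ip, a cofactor of meiotic recombination, Psme3ip1, which binds the activator Psme3, and Psme2b, a copy of Psme2.

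Accessibility had been measured by ATAC-seq, in which the transposase Tn5 cuts and tags open DNA, in 18 cultures from the cortices of CD1 mouse embryos (by embryonic day 15). All cultures received cytosine arabinoside at 2 µM against dividing cells, lentivirus carrying a pair of shRNAs (day 6 of culture), and harvest followed on day 11. There were 5 with shControl and shScrambled, 5 with shOpa1 and shScrambled, 3 with shControl and shAtf4, and 5 with shOpa1 and shAtf4. The shRNAs are directed against Opa1, a fusion GTPase of the inner mitochondrial membrane, and Atf4, which encodes a transcriptional effector of the integrated stress response. The labels do not say whether replicates came from separate litters, and lentivirus reaches all cell types that a cortical culture may hold.

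The file holds 211682 intervals with positions and a score, and no value for any sample or group. No knockdown comparison, replicate error or depth per culture can therefore be given, and every value below describes the merged list. Such a list says where accessible sites were called, not how open they were. Peak width is the only graded measure, since the score was at its ceiling of 1000 for 98.5% of intervals. Of the neuronal markers Rbfox3, Map2, Tubb3, Snap25, Syt1, Syp, Elavl4 and Grin2b, all 8 had a peak over a gene end. So did 1 of 8 microglial and 0 of 6 leukocyte markers, and 57.9% of all protein-coding genes. Within 1000 bp of an end, a peak lay at all 8 neuronal, 5 of 8 microglial and 3 of 6 leukocyte markers. The share of all protein-coding genes was then 70.4%.

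The proteasome degrades proteins tagged with ubiquitin. Its core particle is a barrel of stacked rings, with alpha subunits (Psma) forming the outer rings and the gate and beta subunits (Psmb) forming the inner rings. Of the beta subunits, Psmb6, Psmb7 and Psmb5 carry the active sites. Interferon-gamma induces their replacements Psmb9, Psmb10 and Psmb8, which shape peptides for presentation on MHC class I. Psmb11 takes the place of Psmb5 in the thymic cortex, and Psma8 that of Psma7 in male germ cells. The regulatory particle caps the barrel. Its ATPases (Psmc) unfold substrates, and its other subunits (Psmd) bind and remove ubiquitin. In neurons the proteasome turns over synaptic proteins, and transcription of its constitutive genes is raised by the factor NFE2L1 when its activity falls short.

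Constitutive subunit genes almost uniformly had a peak at a gene end. A peak was counted at an end if any of its bases lay within 1000 bp of either outermost end of the gene. This held for 30 of 31 constitutive subunits (96.8%), for 4 of the 5 immunoproteasome, thymus and testis subunits, and for 43 of all 46 genes (93.5%). Over all protein-coding genes it held for 70.4%. The genes without one were Psma6, Psma8 and Psme2b. With a peak required over the end itself, 30 of 31 constitutive genes still had one, against 2 of the 5 restricted genes and 57.9% of all protein-coding genes. No test is given, since the genes were chosen as a group with earlier results known, and genes are not replicates. The 43 genes held 67 distinct end peaks, which covered 57966 bp in all, and 28 of them had a single end peak.

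A table of transcription starts, from RefSeq GRCm38.p6, matched 39 of the 46 genes, with 43 starts. Psma8, Psmb1, Psmb2, Psmb7, Psmc3, Psmd3 and Psmd7 had no entry. All 25 constitutive genes with an entry had a peak over a start, as did all 3 chaperones and all 4 activators. Of the 17492 protein-coding genes with an entry, 62.5% had one. Among the restricted genes it was 2 of 4, Psmb9 and Psmb11. A peak lay within 1000 bp of the finish in 9 of 39 genes (23.1%), close to the 25.0% of all protein-coding genes.

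**Figure D1:**
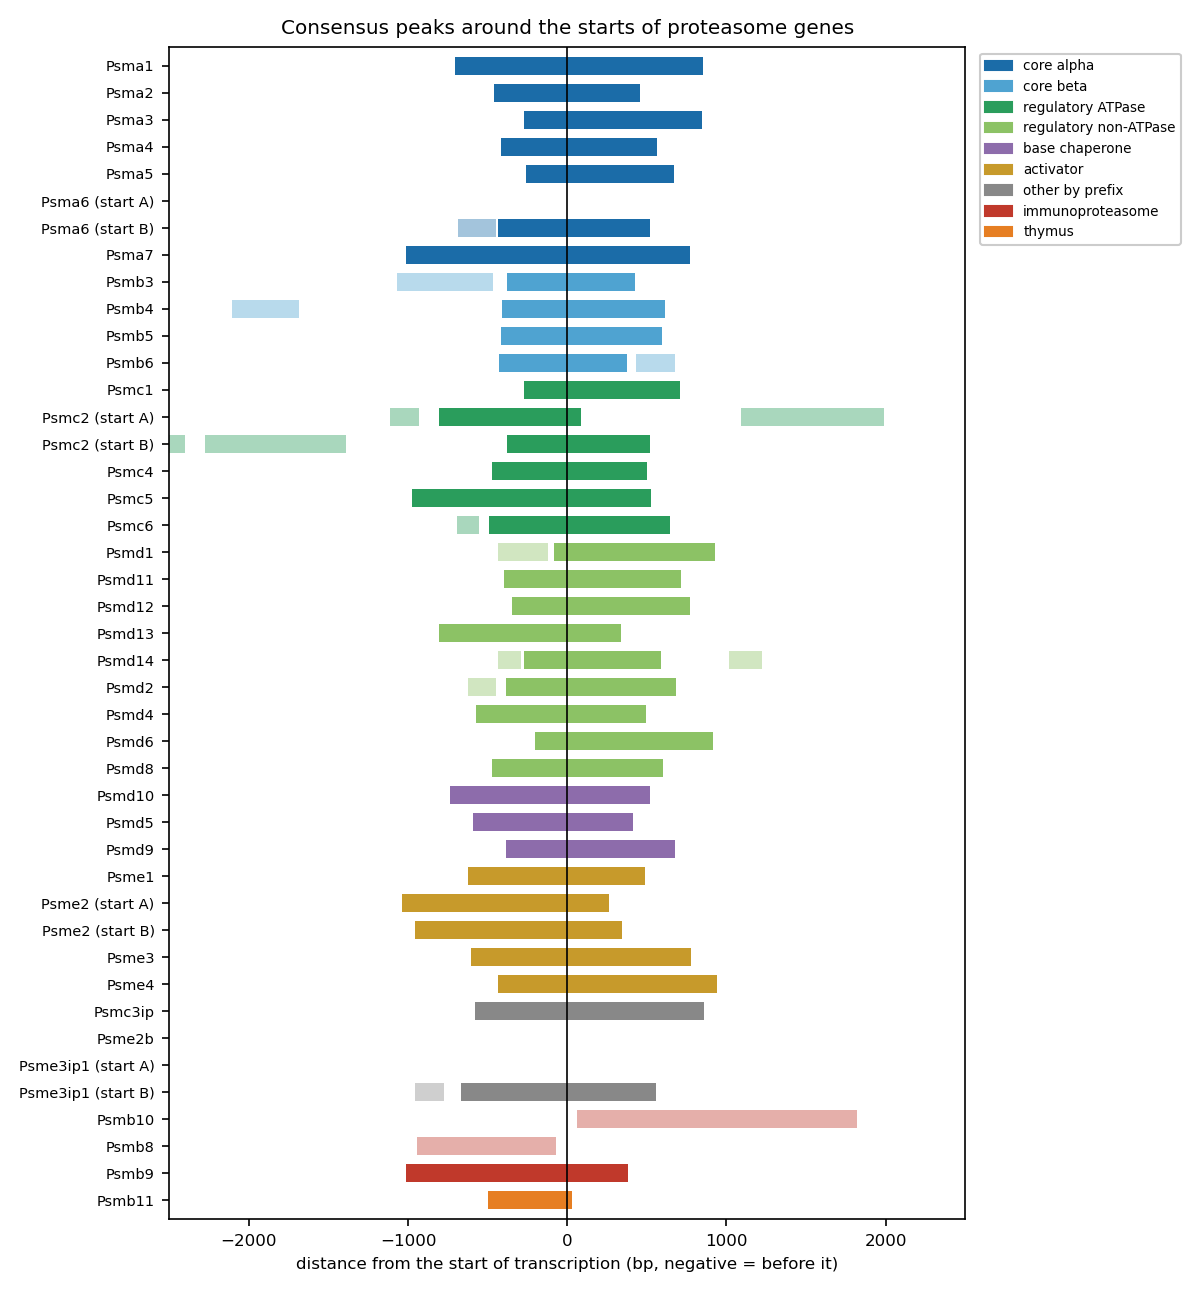
Consensus peaks within 2500 bp of each start of transcription of 39 proteasome genes, by class. The x axis gives the distance in bp from the start (line at 0, negative before it), solid bars are peaks over the start, pale bars are other peaks, and start A has the lower coordinate where a gene has more than 1. Each of the 25 constitutive genes with a listed start has a solid bar. The peaks of Psmb8 and Psmb10 stop 73 and 59 bp short of the start, and nothing lies near the start of Psme2b.

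The alpha ring genes had start peaks of 920 to 1780 bp. The widest was at Psma7 (chromosome 2, gene at 180036367 to 180042464), where a peak of 1780 bp reached 1010 bp before and 769 bp after the start. Psma1 followed with 1563 bp. Psma4, Psma5 and Psma2 had 985, 931 and 920 bp. Psma3 and Psma6 differed from the rest in layout. The outermost end of Psma3 (chromosome 12, 70969283 to 70995877) lies upstream of its listed start. That end had peaks of 738, 451 and 389 bp, and the listed start at 70974623 had its own peak of 1122 bp.

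Psma6 (chromosome 12, 55384222 to 55418459) was the single constitutive gene without an end peak. Its table entry holds a pair of starts. The outer start, at 55384222, lay 4277 bp from the nearest peak. The inner start, at 55398825, was covered by a peak of 960 bp (55398389 to 55399348). So the outermost end marks the uncovered start, and all 7 alpha genes had a peak over a listed start. The bases before both starts are shown because 1 start was covered and the other was not. Each line gives 150 bases before the start, 5′ to 3′ on the gene's strand, with CG dinucleotides in capitals.
Psma6 outer start (chr12:55384072-55384221, plus strand): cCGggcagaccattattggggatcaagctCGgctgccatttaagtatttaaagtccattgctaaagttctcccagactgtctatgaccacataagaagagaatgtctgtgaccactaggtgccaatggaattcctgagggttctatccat
Psma6 inner start (chr12:55398675-55398824, plus strand): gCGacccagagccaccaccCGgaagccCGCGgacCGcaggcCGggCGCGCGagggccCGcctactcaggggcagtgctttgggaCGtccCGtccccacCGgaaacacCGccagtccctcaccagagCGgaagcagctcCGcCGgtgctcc
The outer stretch holds 2 CG dinucleotides and the inner 17. Across all promoters of the table the median was 7 (quartiles 2 and 13).

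The widest end peaks of the beta ring genes measured between 477 and 1061 bp. Psmb1, Psmb4, Psmb5 and Psmb2 lay close together at 1061, 1024, 1013 and 1013 bp. Psmb6 had 806 bp. The widest at Psmb3, of 950 bp, lay 778 bp beyond its finish in the neighbour Pip4k2b, and the peak over its start had 810 bp. Psmb7, which carries the trypsin-like site (chromosome 2, 38588046 to 38643952), had the narrowest, a peak of 477 bp over its higher-coordinate end (38643609 to 38644085). It was the single member whose end peak fell below 500 bp. Psmb7 also had the most peaks of any member, 18 in the gene and 10 kb on both sides, 9 of them inside the gene away from its ends. These interior peaks reached 1018, 938 and 917 bp, each wider than the peak at the end.

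The ATPase genes, whose products form the ring that threads substrates into the core, all had an end peak. Psmc5 had the widest at 1502 bp, then Psmc6 at 1139 and Psmc3 at 1019 bp. Psmc1, Psmc4 and Psmc2 had 981, 972 and 891 bp. Psmc2 has starts at 21785275 and 21786747 on chromosome 5, and each lay under a peak of its own, of 891 and 899 bp. Psmc1 had 4 end peaks, of which 3 lay at its finish (175, 373 and 324 bp).

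All 11 non-ATPase genes of the regulatory particle had an end peak, with widest peaks between 866 and 1408 bp. Psmd7 and Psmd3, which encode scaffold subunits, had 1408 and 1256 bp, and Psmd13 had 1148 bp. The narrowest was at Psmd14, the subunit that cuts ubiquitin chains from substrates, with 866 bp. Psmd1 and Psmd2, the largest subunits, had 1016 and 1069 bp. Psmd4, a receptor for ubiquitin, had 1070 bp. Psmd6, Psmd8, Psmd11 and Psmd12 lay between 1074 and 1120 bp. The members' end peaks included 2 below the score ceiling, a peak of 176 bp at Psmd2 (score 302) and one of 207 bp at Psmd3 (score 252). Both genes had wider end peaks at the ceiling.

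The widest end peak of the constitutive genes had a median of 1022 bp (range 477 to 1780, 30 genes), below the median of 1133 bp over all protein-coding genes with an end peak and inside its quartiles of 842 and 1398 bp. Start peaks gave the same picture, with a median of 1020 bp over 26 constitutive starts and 1165 bp over all covered starts. Constitutive start peaks reached a median of 418 bp before the start and 598 bp after it. More of the peak lay after the start than before it in 19 of 26 (73.1%), and in 61.3% of all covered starts. Over all proteasome genes it was 23 of 38 covered starts (60.5%), near that background.

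**Figure D2:**
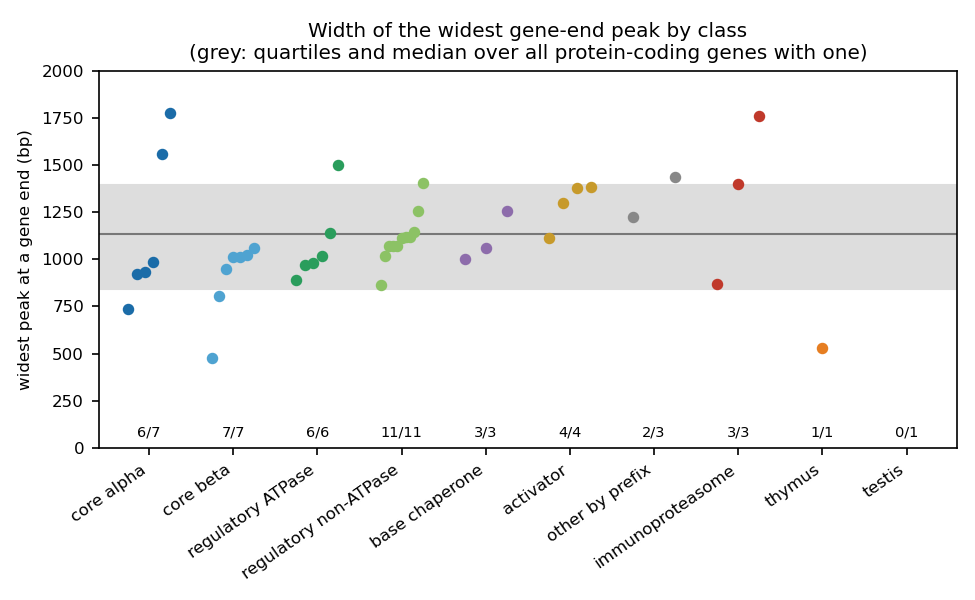
Width in bp of the widest peak at an end of each proteasome gene (points), by class on the x axis, with the number of genes that have one of all genes in the class at the bottom. The grey band and line are the quartiles (842 and 1398 bp) and median (1133 bp) over all protein-coding genes with an end peak. Most constitutive genes lie inside the band, and Psmb7 (477 bp), Psmb11 (528 bp), Psma3 (738 bp) and Psmb6 (806 bp) lie below it.

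The restricted genes were then set beside the constitutive genes they replace. Psmb5 (chromosome 14, 54614120 to 54617995) had a peak of 1013 bp from 419 bp before to 593 bp after its start. Psmb8, its interferon-induced counterpart (chromosome 17, 34198195 to 34201454), had a peak of 870 bp (34197253 to 34198122) that ended 73 bp before the start. That peak also lay within 1000 bp of the finish of Tap1. Psmb11, the thymic counterpart (chromosome 14, 54625310 to 54629556), had a peak of 528 bp (54624814 to 54625341). It lay almost wholly before the start and reached 31 bp past it. Psmb5 and Psmb11 are neighbours on opposite strands with starts 7315 bp apart. No peak lay between theirs, and none lay in the body of either gene beyond the start peak.

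Psmb6 (chromosome 11, 70525324 to 70527858), the constitutive subunit with the caspase-like site, had a start peak of 806 bp and a second peak of 244 bp inside the gene. Its counterpart Psmb9 (chromosome 17, 34182030 to 34187330) had a start peak of 1401 bp (34186945 to 34188345). This peak also covered the start of Tap1, a subunit of the transporter that feeds peptides to MHC class I. The starts of these divergent genes lie 226 bp apart, so the peak cannot be assigned to either. Psmb10 (chromosome 8, 105935728 to 105938392), counterpart of Psmb7, had the widest peak of the restricted genes at 1765 bp (105936569 to 105938333). It covered 66.2% of the gene and ended 59 bp after the start, inside the gene, without touching the start.

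Psma8 (chromosome 18, 14706135 to 14762301) was the barest of the restricted genes. It had no peak in its 56167 bp, and its nearest peak, of 462 bp, lay 8739 bp away. Psma7, the gene it replaces in germ cells, had the widest end peak of all members. Protein-coding genes of 50 to 100 kb had a median of 9 peaks in the gene and 10 kb on both sides (quartiles 5 and 14), and Psma8 had 1.

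**Figure D3:**
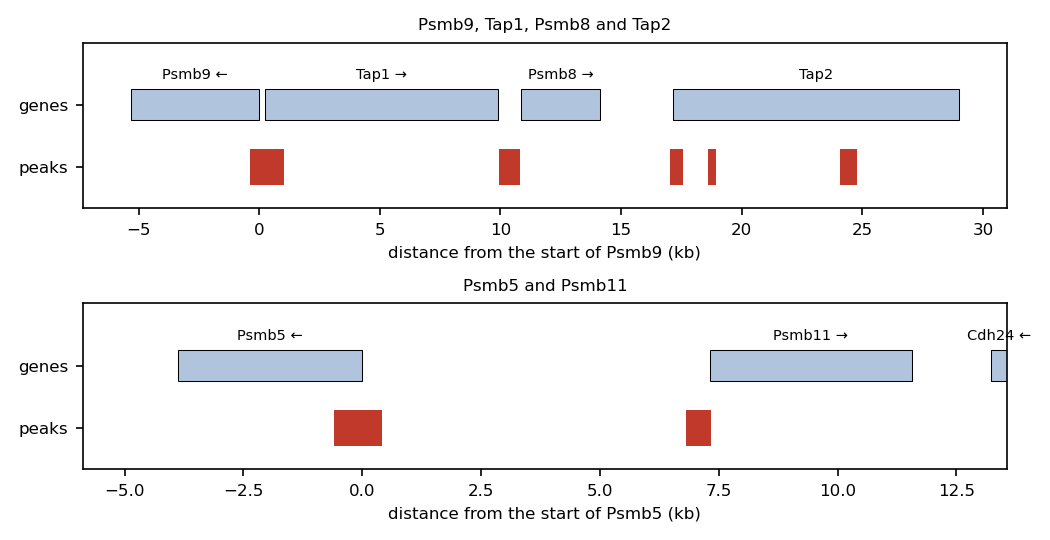
Peaks (red) and genes (blue) along the loci of Psmb9, Tap1, Psmb8 and Tap2 (top) and of Psmb5 and Psmb11 (bottom), with distance in kb from the start of Psmb9 or Psmb5 on the x axis and arrows for the strand where the start table gives it. The peak of 1401 bp spans the starts of Psmb9 and Tap1, the peak of 870 bp sits between Tap1 and Psmb8, and Psmb11 has the narrow peak of 528 bp.

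The bases before the start of the catalytic beta genes are shown to set restricted beside constitutive promoters. Again 150 bases are given for each, 5′ to 3′ on the gene's strand, with CG in capitals. Psmb7 has no entry.
Psmb5 (chr14:54617996-54618145, minus strand): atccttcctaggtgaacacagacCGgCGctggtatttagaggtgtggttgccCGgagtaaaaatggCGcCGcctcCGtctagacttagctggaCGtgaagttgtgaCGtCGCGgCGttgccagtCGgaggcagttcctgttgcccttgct
Psmb8 (chr17:34198045-34198194, plus strand): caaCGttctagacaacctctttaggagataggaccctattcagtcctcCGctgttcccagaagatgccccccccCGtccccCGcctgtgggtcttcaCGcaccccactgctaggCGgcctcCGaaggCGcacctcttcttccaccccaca
Psmb11 (chr14:54625160-54625309, plus strand): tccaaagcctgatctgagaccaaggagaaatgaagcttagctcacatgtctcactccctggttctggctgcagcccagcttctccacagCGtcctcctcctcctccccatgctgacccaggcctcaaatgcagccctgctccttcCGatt
Psmb6 (chr11:70525207-70525356, plus strand): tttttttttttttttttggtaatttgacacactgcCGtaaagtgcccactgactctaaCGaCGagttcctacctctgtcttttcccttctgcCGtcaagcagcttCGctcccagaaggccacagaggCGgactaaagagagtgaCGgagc
Psmb9 (chr17:34187331-34187480, minus strand): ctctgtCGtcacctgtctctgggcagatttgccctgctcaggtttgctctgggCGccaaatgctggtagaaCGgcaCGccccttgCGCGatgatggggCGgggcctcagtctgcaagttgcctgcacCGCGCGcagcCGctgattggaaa
Psmb10 (chr8:105938393-105938542, minus strand): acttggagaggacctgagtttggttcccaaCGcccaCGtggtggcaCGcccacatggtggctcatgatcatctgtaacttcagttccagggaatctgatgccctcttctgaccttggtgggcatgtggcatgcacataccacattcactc
Psmb5 holds 12 CG dinucleotides in this stretch, Psmb8 8 and Psmb11 2. Psmb6 holds 7 and Psmb9 11. Psmb10 holds 3. These counts did not separate all restricted from all constitutive genes, and Psmb9 held more than Psmb6.

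Over the whole promoter of the table (250 bases before to 50 after the start), CG content was expressed as the CpG ratio, the number of CG dinucleotides over that expected from the C and G content. The median ratio of the constitutive genes was 0.80, and that of all protein-coding promoters was 0.57. Psmb9 had 0.60, just under the 0.6 used here as a dividing value, and Psmb8, Psmb10 and Psmb11 had 0.52, 0.19 and 0.17. Of promoters with a ratio of at least 0.6, 95.0% of all protein-coding starts lay under a peak, and all 28 proteasome starts did. Among the CpG-rich promoters the proteasome genes were therefore near the background. Of promoters under 0.6, 30.3% of all starts lay under a peak, and 10 of 15 proteasome starts did. Most of those 10 sat in the bin from 0.4 to 0.6, where 9 of 10 proteasome starts and 69.3% of all starts were covered. The exception there was Psmb8. Below 0.2, 8.84% of all starts and 1 of 5 proteasome starts were covered. The covered start was that of Psmb11, and the others were Psmb10, Psme2b, the outer start of Psma6 and the inner start of Psme3ip1.

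**Figure D4:**
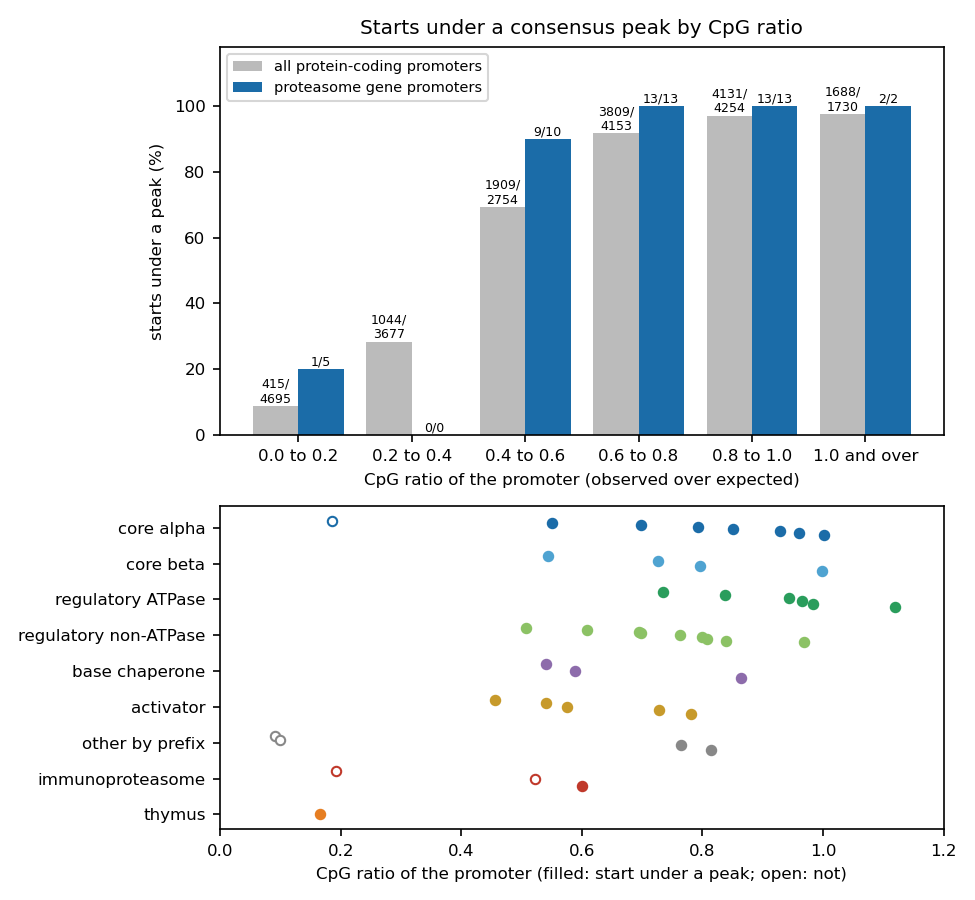
Top, percent of transcription starts under a consensus peak by the CpG ratio of the promoter, for all protein-coding promoters (grey) and proteasome gene promoters (blue), with counts above the bars. Bottom, the CpG ratio of each proteasome promoter by class, filled where a peak covers the start. Coverage rises from 8.84% below 0.2 to 97.1% between 0.8 and 1.0, and the uncovered proteasome starts are 4 promoters below 0.2 and Psmb8 at 0.52.

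All assembly chaperones and activators had a peak over a start. Psmd10, Psmd9 and Psmd5, which help to build the base of the regulatory particle, had start peaks of 1260, 1063 and 1004 bp. Psmd10 is the single member on the X chromosome, and its start peak was the only peak within 10 kb of it. Psme1 and Psme2 encode the interferon-induced activator that opens the core without ubiquitin. They had start peaks of 1112 and 1301 bp with CpG ratios of 0.58 and 0.54 (the outer start of Psme2). The Psme2 peak also covered the start of Rnf31. Of the interferon-induced beta subunits, Psmb9 had a peak over its start, and Psmb8 and Psmb10 did not. Any link between induction by interferon and coverage of the start was not tested. Psme3, the nuclear activator, had 1383 bp, and Psme4, which is linked to degradation of acetylated histones, had 1382 bp. Psmc3ip and Psme3ip1 had start peaks of 1439 and 1225 bp. Psme2b (chromosome 11, 48945345 to 48946410) had no peak within 10 kb, and the nearest lay 30480 bp from an end.

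Several of these peaks were shared with a neighbour. In 15 of the 43 genes with an end peak (34.9%), such a peak also lay within 1000 bp of an end of another protein-coding gene, against 29.6% of all genes with an end peak. A separate count took peaks over listed starts of both genes, which need not be the outermost ends. This held for 8 of 36 members with a covered start (22.2%) and 14.1% of all such genes. All 8 were divergent pairs. Psma7 and Ss18l1 start 19 bp apart, Psmd13 and the mitochondrial deacetylase gene Sirt3 85 bp, Psmc5 and Ftsj3 101 bp, and Psmd10 and the autophagy protease gene Atg4a 196 bp. Psma2 and the mitochondrial ribosomal protein gene Mrpl32 start 205 bp apart, Psme3ip1 and Rspry1 215 bp, Psmb9 and Tap1 226 bp, and Psme2 and Rnf31, a ubiquitin ligase gene, 641 bp at the nearest. A peak over both starts cannot be assigned to either gene.

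Short sequences bound by factors known for these genes or for the study's stress were searched on both strands of the 43 promoters. The core of the antioxidant response element, TGACNNNGC, through which NFE2L1 and NFE2L2 act, was in 6 of 43 promoters (14.0%) and in 13.0% of all promoters of the table. The proteasome genes were thus at the background for these letters. The matches were in Psmb5, Psmb6, Psmc6, Psmd12, Psmd9 and Psme4, and each of these starts lay under a peak. Those wholly before the start are shown in 60 bases, with the match in capitals, on the gene's strand.
Psmb5 (chr14:54618008-54618067, minus strand): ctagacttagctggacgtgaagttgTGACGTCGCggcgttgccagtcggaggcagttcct
Psmb6 (chr11:70525297-70525356, plus strand): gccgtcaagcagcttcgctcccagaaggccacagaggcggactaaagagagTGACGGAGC
Psmd9 (chr5:123228130-123228189, plus strand): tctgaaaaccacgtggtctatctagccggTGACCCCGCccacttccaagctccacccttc
Psmc6 (chr14:45329574-45329633, plus strand): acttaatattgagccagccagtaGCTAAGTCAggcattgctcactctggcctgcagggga
Psmd12 (chr11:107479278-107479337, plus strand): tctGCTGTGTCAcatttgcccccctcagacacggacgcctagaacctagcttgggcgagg
The match began 47 bases before the start in Psmb5, 9 in Psmb6 and 31 in Psmd9. In Psmc6 and Psmd12, where it lies on the other strand, it began 227 and 247 bases before the start.

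The ETS site, CCGGAAG, stood furthest above its background among the 10 motifs searched. It was in 15 of 43 proteasome promoters (34.9%) of 14 genes, and in 11.6% of all promoters. Among promoters with a CpG ratio of at least 0.6 it was in 50.0% of the proteasome promoters and 19.7% of all. It was unevenly spread over the classes. It was in 6 of 9 non-ATPase promoters and 4 of 6 ATPase promoters, 1 of 8 alpha and 0 of 4 beta promoters. It was in none of the 3 immunoproteasome promoters, nor in that of Psmb11. The alpha, beta, immunoproteasome and Psmb11 promoters are too few to tell their shares from the 11.6% of all promoters. The constitutive promoters with the whole site in the last 60 bases before the start are printed, since all of them belong to the regulatory particle. That cut leaves out the inner start of the alpha gene Psma6, where a site began 2 bases before the start and ran across it. Capitals mark the site, on the gene's strand.
Psmc1 (chr12:100110142-100110201, plus strand): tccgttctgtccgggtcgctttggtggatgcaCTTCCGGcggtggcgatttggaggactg
Psmc2 inner start (chr5:21786687-21786746, plus strand): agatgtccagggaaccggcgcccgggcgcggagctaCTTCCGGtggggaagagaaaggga
Psmd2 (chr16:20651592-20651651, plus strand): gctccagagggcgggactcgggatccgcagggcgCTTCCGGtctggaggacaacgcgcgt
Psmd6 (chr14:14120946-14121005, minus strand): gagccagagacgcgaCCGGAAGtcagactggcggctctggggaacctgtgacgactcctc
Psmd11 (chr11:80428555-80428614, plus strand): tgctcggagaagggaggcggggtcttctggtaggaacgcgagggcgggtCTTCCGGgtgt
Psmd12 (chr11:107479468-107479527, plus strand): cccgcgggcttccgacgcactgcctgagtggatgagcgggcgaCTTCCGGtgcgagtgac
The site begins 28, 24, 26, 45, 11 and 17 bases before the start, in that order. It lies on the opposite strand in all of them but Psmd6. A match of letters is a description and does not show that a factor was bound.

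The other motifs are given with their share of all promoters beside them. The CCAAT box was in 37.2% of proteasome promoters and 38.2% of all. The GC box GGGCGG was in 55.8% and 46.2%, but in 64.3% and 74.1% of those with a CpG ratio of at least 0.6. The cAMP response element TGACGTCA was in 0 of 43 (2.23% of all). The composite site TGATGCAA, which ATF4 binds with C/EBP partners, was in 1, that of Psmd13 (2.33%, against 0.865% of all). The part site of nuclear respiratory factor 1, GCATGCG, was in 2 (4.65%, against 4.44% of all), and TATAAA was in 4 (9.30%, against 12.6% of all). The interferon-stimulated response element was in 4 (9.30%, against 3.35% of all), those of Psme1, Psmb3, Psmd4 and Psmd9, and so in none of the immunoproteasome promoters. The gamma-activated site TTCNNNGAA was in 2 (4.65%, against 7.69% of all), those of Psmd2 and Psmb8. In Psmb8 it began 97 bases before the start, inside the peak that ends 73 bp before it.

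In 28 of 46 proteasome genes (60.9%) no peak lay inside the gene away from its ends, against 45.5% of all protein-coding genes. The proteasome genes were shorter, with a median length of 10817 bp against 17219 bp. With 10 kb on both sides included, constitutive genes had a median of 4 peaks, and the 5 restricted genes had 3 (5 at Psmb8, 5 at Psmb10, 3 at Psmb9, 2 at Psmb11 and 1 at Psma8). Many of these lay at neighbours. Apart from its end peak, the peaks counted for Psmb10 lay in Pskh1. Those of Psmb8 lay in Tap2 or over the starts of Psmb9 and Tap1. The other peak of Psmb11 was the start peak of Psmb5. Set beside all protein-coding genes of like length, the proteasome genes were higher in some length classes and lower in others. Under 5 kb the 10 members had a median of 4 and all genes 1. From 5 to 10 kb the 12 members had 3 and all genes 4, and from 10 to 20 kb both had 4. From 20 to 50 kb the 8 members had 4.5 and all genes 5, and from 50 to 100 kb the 4 members had 12.5 and all genes 9. After Psmb7, the counts were highest at Psmd14 (14), Psmd1 (11) and Psmc1 (10). Of the 14 near Psmd14, 5 lay in the next gene, Tbr1, a transcription factor of deep cortical layers, and 1 of these was 2112 bp wide. Of the 11 near Psmd1, 3 lay in Htr2b, a serotonin receptor gene within it. Psme4, the longest member at 109376 bp, had 6, where all genes over 100 kb had a median of 23. That class has no upper limit, and Psme4 sits near its lower edge. In the class from 50 to 100 kb the quartiles were 5 and 14.

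**Figure D5:**
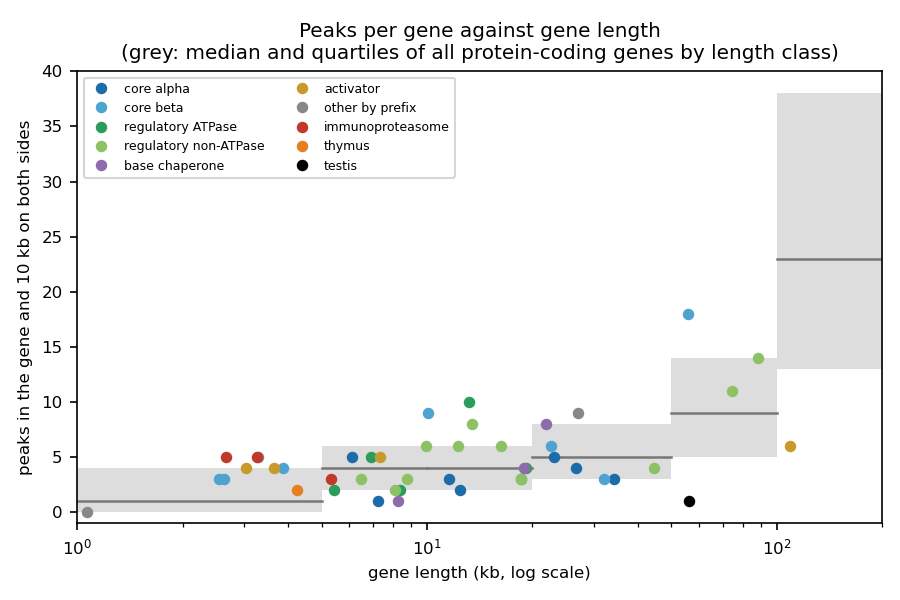
Number of consensus peaks in each proteasome gene and 10 kb on both sides (y axis) against gene length in kb (x axis, log scale), coloured by class. Grey lines and bands are the median and quartiles of all protein-coding genes by length class. Counts include peaks that lie in neighbouring genes. Above their bands lie Psmb7 (18 peaks), Psmc1 (10), Psmb3 (9), Psme3ip1 (9), Psmd3 (8), and Psmb8, Psmb10 and Psmc3ip (5 each). Below theirs lie Psma8, Psma4 and Psmd10 (1 each) and Psme4 (6), which sits near the lower edge of a class without an upper limit.

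Partner genes of the pathway were taken from lists by function. Of 12 assembly factors and partners, 11 had a peak at an end and 10 of 10 with a listed start had it covered. The exception at the ends was Ecpas, a proteasome adaptor, whose listed starts lay under a peak of 2256 bp. Pomp, the maturation factor of the core, had 1309 bp, and Adrm1, a ubiquitin receptor, had 1201 bp. All 8 regulators had an end peak, among them Nfe2l1 (1238 bp), Nfe2l2 (1665 bp) and the protease gene Ddi2 (1429 bp), whose product activates NFE2L1. All 6 genes of antigen presentation had an end peak. Tap2 had one of 552 bp, and B2m and Erap1 had 1126 and 1580 bp. Of the interferon response, Irf1, a transcription factor, had an end peak of 1015 bp, and Ifngr1, a receptor chain for interferon-gamma, had 1231 bp. These small lists stand against the 70.4% of all protein-coding genes given above.

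The peaks near immune and tissue-restricted genes can be read beside markers of immune cells, thymic epithelium and germ cells. Of 8 microglial markers, 5 had a peak within 1000 bp of an end, and 0 of the 5 with a listed start had it covered. Over all protein-coding genes these shares were 70.4% and 62.5%, the background for all lists here. The promoters of those 5 had CpG ratios of at most 0.32. Of all starts, 28.4% were covered at ratios from 0.2 to 0.4, and 8.84% below 0.2. Of 6 leukocyte markers, 3 had an end peak. Of 4 thymic epithelial markers, 2 had one, at Ly75 (731 bp) and Aire (604 bp). Of 6 germ cell markers, 2 had one, at Dazl (825 bp) and Sycp3 (538 bp). The widest end peak of the microglial markers was 565 bp and that of the leukocyte markers 833 bp. Those of Psmb8, Psmb9 and Psmb10 were wider (870, 1401 and 1765 bp), and that of Psmb11 was narrower (528 bp). The peaks of Psmb8 and Psmb9 also lay at an end of Tap1. The share of such cells in the cultures was not tested.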

How the data were processed

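The authors deposited 1 consensus list in BED form over the series, with a score per interval and no column for a sample, so the planned tests between knockdown groups were not run. Peak names carry MSPC, per the file. MACS2, deepTools, MultiQC and the build mm10 are named in the submitters' processing notes. The aligner, the shift of reads for Tn5, thresholds and which of the 18 samples entered the list are unknown here, not given in the sources used. Depth, and the precision it gives, is unknown. The deposited score ranked nothing.

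Genes came from RefSeq GRCm38.p6, the assembly mm10 also names. Left out were 348 genes on scaffolds, 113 of them protein-coding. Starts and promoters (300 bases) came from a RefSeq table of the same build, which held 43 starts of 39 members and 21263 of 17492 protein-coding genes. BED starts were raised by 1. Members and lists were chosen with earlier results of these data known. Named were the restricted genes and their counterparts, genes without an end peak, the widest and narrowest in each class, those with most peaks, shared peaks and the 6 with TGACNNNGC. The CpG split, the ETS sequences and the neighbours of flank peaks were chosen after values were seen. Counting was tested on planted peaks. Scripts ran in Python 3.11.15 with pandas 2.3.3 and numpy 2.4.6, intervals came from scipy 1.17.1, and plots from matplotlib 3.10.9.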

Additional observations from a re-analysis of the deposited data

How the results depend on the processing

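No paired analysis was possible because the list holds no value per sample, and for the same reason no replicate could be left out and no comparison of knockdown groups was fitted. The share of members with an end peak lay between 91.3% and 93.5% with end windows of 500 and 2500 bp and with peak midpoints. It also did for peaks of at least 500 bp and for peaks at the score ceiling. Over all protein-coding genes the share was 66.2% and 77.0% with windows of 500 and 2500 bp. That background was 63.2% for peaks of at least 500 bp and 70.2% at the score ceiling. It was not computed for midpoints. A share was taken as moved when it left the exact 95% interval of the reported share (82.1 to 98.6% for all members), and a median when it left the interval of the reported median from ranks at the same confidence. With peaks near another gene's end left out, 65.2% of members and 71.0% of constitutive genes kept one, against 57.5% of all protein-coding genes. Psma2, Psma7, Psmb8 and Psmb9 were among the 13 that lost theirs. With starts in place of ends, the constitutive share was 100%. The median number of peaks per constitutive gene was 2 with 2 kb flanks, 2 when gene-end peaks were dropped, 2 for peaks no narrower than 500 bp, and 15 with 50 kb flanks. The restricted genes had 16 with 50 kb flanks. The other 44 of 52 recomputed values stayed within their intervals. For the 5 restricted genes the interval was too wide for this to show stability. Their number with an end peak fell from 4 to 2 when a peak over the end itself was required. It fell equally when peaks near another gene's end were left out, and both counted as unmoved. Intervals of the motif shares, over 43 promoters, were also wide, so staying inside them says little. Requiring a peak over the end itself took the end peak from Psmb8 and Psmb10 alone.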
